A study of Mus musculus with 24 samples.

Results

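The 8 genes Creb1, Crem, Atf1, Crtc1, Crtc2, Crtc3, Crebbp and Ep300 encode the transcription factors that bind the cAMP response element and the coactivators these factors recruit. They were taken by symbol from raw per-library gene counts of the mouse hippocampus, 8 of 49568 gene symbols, and all 8 were among the 18482 genes that passed the filter on low counts. The libraries came from male mice of a C57-Bl/6J background at 12 weeks of age by the labels, either wild type (WT) or homozygous for a knock-in mutation of the gene for mitogen- and stress-activated kinase 1 that leaves the protein without kinase activity (MSK1 KD, written KD here). Mice lived in standard housing (SH) or, from birth, in an enriched environment (EE) of large cages with a running wheel, toys and several dams, and had been through no experiment. The mutation was present in every cell and from conception, the 2 genotypes were bred as separate homozygous lines, and each library is bulk tissue. The 22 libraries used were 6 WT SH, 5 WT EE, 6 KD SH and 5 KD EE; the labels mark 2 further EE libraries, 33B and 34B, as failed. The labels do not tie libraries to animals, so p-values measure only the spread between these libraries, which may in part be technical.

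CREB (Creb1), CREM (Crem) and ATF1 (Atf1) are close relatives that bind the same element as dimers through a leucine zipper. Phosphorylation of CREB at its activating serine, by protein kinase A, MSK1 or calcium/calmodulin-dependent kinases, lets it bind the paralogous acetyltransferases CBP (Crebbp) and p300 (Ep300), which acetylate histones near the promoter. The CREB-regulated transcription coactivators (Crtc1 to Crtc3) act by another route. Salt-inducible kinases hold them in the cytoplasm by phosphorylation, calcineurin releases them, and in the nucleus they bind the leucine zipper whether or not the serine is phosphorylated. In the hippocampus this system is best known for the gene expression that long-term memory needs. Most of this control acts on proteins, which counts of RNA do not measure.

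RefSeq promoter windows on GRCm38.p6, from 250 bases before to 50 after a gene's start, were at hand for 6 of the 8 genes (Creb1, Atf1, Crtc1, Crtc3, Crebbp and Ep300; no entry for Crem and Crtc2). They were searched for the full cAMP response element TGACGTCA, which reads the same on both strands, and for its half-site TGACG or CGTCA, which each full element also holds. None of the 6 windows held the full element, which 1.79% of all 32851 windows did, and only the Atf1 window held a half-site, as 20.8% of all windows did. That half-site began 90 bases before the Atf1 start. The windows of Ep300 and Crebbp lay wholly inside the annotated genes, so the bases before the annotated 5' ends of these genes were not searched. A match or its absence describes these letters only. The windows of the factors Creb1 (chr1:64532554-64532853, plus strand, GRCm38.p6) and Atf1 (chr15:100227609-100227908, plus strand, GRCm38.p6) are shown because these are the 2 factors with an entry, with the half-site in capitals.
Creb1: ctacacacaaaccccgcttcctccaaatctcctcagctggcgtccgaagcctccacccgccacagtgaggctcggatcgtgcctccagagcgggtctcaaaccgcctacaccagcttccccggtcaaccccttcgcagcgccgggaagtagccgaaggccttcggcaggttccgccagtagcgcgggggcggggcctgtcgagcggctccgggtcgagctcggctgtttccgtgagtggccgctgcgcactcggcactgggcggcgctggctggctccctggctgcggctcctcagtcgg
Atf1: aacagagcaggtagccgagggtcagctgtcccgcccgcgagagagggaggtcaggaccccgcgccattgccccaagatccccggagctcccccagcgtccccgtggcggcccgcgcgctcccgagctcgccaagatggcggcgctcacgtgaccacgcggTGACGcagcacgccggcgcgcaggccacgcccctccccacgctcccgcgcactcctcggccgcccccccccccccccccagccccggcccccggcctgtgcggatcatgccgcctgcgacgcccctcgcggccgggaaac

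The 22 libraries held between 8911999 and 56752074 counts on genes, with a median of 30265878, and each of the 8 genes had at least 78 counts in each library. Values below are CPM, counts relative to the total of the library after scaling by the trimmed mean of M-values. Markers of neurons, astrocytes and oligodendrocytes were present throughout, and none of the 91 genes of 15 marker lists had a count of 0 in any library. The 12 choroid plexus markers, of the tissue that projects into the ventricle beside the hippocampus, summed to between 222 and 4351 CPM in SH libraries and to between 229 and 8351 CPM in EE libraries. WT EE was split on this list, with 262 CPM in library 31B, 229 CPM in library 35A and 5955 to 8045 CPM in 16, 17 and 33A. WT SH library 12 stood apart for thalamic markers (433 CPM summed, against at most 161 CPM elsewhere), WT SH library 14 for striatal markers (165 against at most 112 CPM), and WT EE library 17 for the 5 blood markers (128 CPM summed, against at most 86.5 CPM elsewhere). For their own analysis the authors left out libraries 2, 9, 12, 31B and 35A, which leaves 17, so results are given with these 17 where they differ. The paper gives poor correlation with the rest of the group as the basis. The spread within groups over the 17, and each p-value from it, thus depends on that choice. In bulk tissue, fewer cells of a type and less RNA per cell cannot be told apart.

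Per kilobase of annotated exon, the level scale on which genes can be compared, Crtc1 was the most abundant of the 8 at 27.9 ± 2.89 CPM per kb (SD, n = 22). Crtc1 is the CRTC known as the neuronal one, and its level was 3.39-fold that of the next gene, Crtc2, at 8.24 ± 0.577 CPM per kb. Ep300 followed at 7.11 ± 0.642, Crebbp at 6.50 ± 0.942, Creb1 at 4.21 ± 0.475, Atf1 at 3.67 ± 0.392, Crtc3 at 2.98 ± 0.306 and Crem at 2.14 ± 0.304 CPM per kb. The steps from Crtc1 to Crtc2 and from Crebbp to Creb1 held in all 22 libraries and exceeded the spread (mean ± SD bands apart). The step from Crtc3 to Crem also cleared the bands and held in 19 of 22 libraries. The neighbours Crtc2 and Ep300, Ep300 and Crebbp, Creb1 and Atf1, and Atf1 and Crtc3 had overlapping bands, with the order holding in 20, 18, 19 and 20 libraries. Exon lengths were those of all annotated exons together, from 3.06 kb for Atf1 to 14.3 kb for Ep300, so a gene whose hippocampal transcripts use few of them is understated.

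No transcript of the 8 genes passed the test for housing or genotype. In edgeR's quasi-likelihood test, a gene counted as called when its Benjamini-Hochberg p over all 18482 genes reached 0.05 and its log2 fold change was at least 0.38 (1.3-fold) in size. By that rule 0 of the 8 were called in any of 6 comparisons. Background must be read beside that count. The share of all genes called was 0.0% for EE against SH in WT, 0.0% for EE against SH in KD, 0.0% for KD against WT in SH, 0.0% for KD against WT in EE, 0.146% (27 genes) for EE against SH averaged over the genotypes and 0.0% for the interaction of genotype and housing. At an unadjusted p under 0.05 the count was also 0 of 8 in each, against 8.65%, 9.63%, 5.76%, 2.61%, 16.1% and 2.04% of all genes in the same order. DESeq2's Wald test on the same libraries also gave 0 of the 8 at an unadjusted p under 0.05 in each comparison. Among its 35346 genes the shares were 5.24%, 5.89%, 3.71%, 2.02%, 9.61% and 1.62%, in that order. Those genes include the low-count ones that the filter before edgeR removed, so these shares are not a like background for the 8. In edgeR the lowest adjusted p over all 48 values was 0.486. In the 4 pairwise comparisons over the 22 libraries the log2 fold changes did not exceed 0.16 in size. Of their 95% intervals 31 of 32 lay inside ±0.38, so that changes of 1.3-fold or more were outside them. That bound is for the 22 libraries only. Over the 17, Crebbp was at -0.21 (SE 0.09) for EE against SH in WT. For KD against WT in EE, Crebbp was then at 0.21 (SE 0.10) and Creb1 at 0.20 (SE 0.10). The ranges of the groups overlapped for each of the 8 genes in each of the 4 comparisons. Of all genes tested, 0.546% had ranges that did not overlap between KD SH and KD EE, and 0.276% between WT SH and KD SH. Nearly all genes thus overlapped there as the 8 did. The share was not computed for WT SH against WT EE or for WT EE against KD EE.

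**Figure D1:**
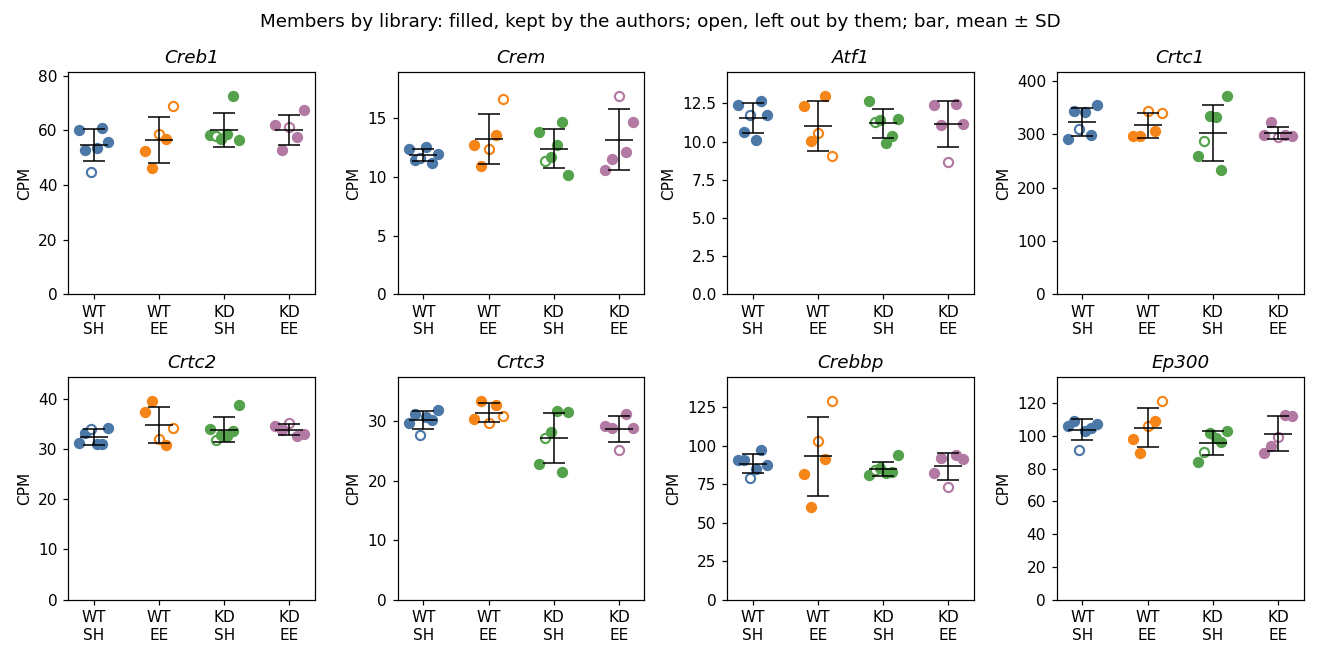
CPM of the 8 genes in each of 22 libraries by group, on linear axes that start at 0; filled points are libraries the authors kept, open points those they left out, and bars are mean ± SD. The groups overlap in each panel, and Crebbp in WT EE spans the widest range as a fold of the lowest value, from 60.4 to 129 CPM.

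Among the factors, Creb1 had a mean of 54.7 ± 5.87 CPM in WT SH (SD, n = 6), 56.7 ± 8.42 in WT EE (n = 5), 60.2 ± 6.196 in KD SH (n = 6) and 60.2 ± 5.43 in KD EE (n = 5). The 6 WT SH libraries ran from 44.8 CPM through a median of 54.7 to 60.9 CPM, and the 6 KD SH libraries from 56.7 through 58.1 to 72.7 CPM. The lowest WT SH value was that of library 12, and the highest KD SH value, library 5, lay well above the next at 58.6 CPM. In WT EE, libraries 16, 17, 31B, 33A and 35A gave 52.4, 46.2, 58.7, 57.0 and 69.0 CPM. In KD EE, libraries 7, 8, 9, 32A and 36A gave 61.9, 52.8, 61.2, 57.5 and 67.5 CPM. The KD libraries sat somewhat higher under both housings, but the log2 difference from WT was 0.14 (SE 0.09, 95% interval -0.04 to 0.31, edgeR adjusted p = 0.836) in SH and 0.08 (SE 0.10, -0.11 to 0.28) in EE. Without library 5 the SH value was 0.076, and with the balance of GC-rich and GC-poor genes in each library (the GC gap) as a covariate it was 0.071. For EE against SH it was 0.05 (SE 0.09, -0.13 to 0.24) in WT and 0.00 (SE 0.09, -0.19 to 0.19) in KD.

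Crem encodes activators and repressors, among them the short inducible repressor ICER that starts at an internal promoter, and a count per gene sums them all. Its mean was 11.9 ± 0.527 CPM in WT SH, 13.2 ± 2.13 in WT EE, 12.4 ± 1.68 in KD SH and 13.2 ± 2.58 in KD EE. WT SH was tight, from 11.2 through 11.8 to 12.6 CPM, and KD SH ran from 10.2 through 12.2 to 14.7 CPM. The WT EE libraries 16, 17, 31B, 33A and 35A read 12.7, 10.9, 12.3, 13.6 and 16.6 CPM. The KD EE libraries 7, 8, 9, 32A and 36A read 10.6, 11.5, 16.9, 12.2 and 14.7 CPM. The highest value in each EE group thus came from a library the authors left out, 35A and 9. Crem had the largest log2 difference between EE and SH of the 8 genes, 0.12 averaged over the genotypes (SE 0.08, -0.05 to 0.29, edgeR adjusted p = 0.486) and 0.16 in WT (SE 0.11, -0.07 to 0.40), the one interval that reached past 0.38. Without library 35A the WT value was 0.06 and the average 0.07, and without library 17 the WT value was 0.22. With the 17 libraries the averaged difference was 0.02 (SE 0.08). A predicted gene on the opposite strand, Gm6225, covers 8.01% of the exon bases of Crem, and counting did not use strand.

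Atf1, the least counted of the factors at 8.68 to 13 CPM, had close means in the 4 groups. They were 11.6 ± 0.994 CPM in WT SH, 11.01 ± 1.63 in WT EE, 11.2 ± 0.954 in KD SH and 11.2 ± 1.52 in KD EE. WT SH ran from 10.1 to 12.7 CPM and KD SH from 9.92 to 12.6 CPM. The WT EE libraries 16, 17, 31B, 33A and 35A gave 12.3, 10.1, 10.6, 13 and 9.08 CPM, and the KD EE libraries 7, 8, 9, 32A and 36A gave 12.4, 11.1, 8.68, 12.4 and 11.2 CPM. Libraries 35A and 9, highest for Crem, were the lowest of their groups for Atf1. The log2 differences ran from -0.07 (SE 0.10, -0.28 to 0.14; EE against SH in WT) to 0.03 (SE 0.11, -0.19 to 0.25; KD against WT in EE), and the first was -0.14 without library 33A and -0.01 without 35A. A processed pseudogene, Atf1-ps, is annotated, and reads that could not be placed between the copies are not in these counts.

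Of the CRTC coactivators, Crtc1 was most variable within KD SH. Its mean was 323 ± 26.8 CPM in WT SH, 317 ± 23.6 in WT EE, 303 ± 52.5 in KD SH and 303 ± 11.7 in KD EE. KD SH ran from 232 CPM in library 5 through 311 to 373 CPM in library 6, the lowest and the highest of all 22 libraries, and WT SH from 291 through 326 to 355 CPM. In WT EE the values of libraries 16, 17, 31B, 33A and 35A were 297, 297, 345, 306 and 340 CPM. In KD EE those of libraries 7, 8, 9, 32A and 36A were 299, 324, 295, 299 and 298 CPM, with library 8 apart from the others. The log2 differences were -0.03 (SE 0.09, -0.21 to 0.16) for EE against SH in WT, -0.00 (SE 0.09, -0.19 to 0.18) in KD, -0.09 (SE 0.08, -0.27 to 0.08) for KD against WT in SH and -0.07 (SE 0.09, -0.26 to 0.12) in EE. Without library 5 the value in SH was -0.03 and without library 6 it was -0.16.

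Crtc2, the CRTC best known from glucose production in the liver, was the steadiest of the 8, with a coefficient of variation of 7.01% over the 22 libraries. It averaged 32.5 ± 1.55 CPM in WT SH, 34.8 ± 3.65 in WT EE, 33.9 ± 2.49 in KD SH and 33.9 ± 1.09 in KD EE. WT SH ran from 31 through 32.2 to 34.3 CPM, and KD SH from 31.8 through 33.2 to 38.7 CPM. The WT EE libraries 16, 17, 31B, 33A and 35A gave 37.4, 39.6, 31.95, 30.9 and 34.3 CPM, so that 3 of the 5 stood above all WT SH libraries, 35A by little, and 1 below them. The KD EE libraries 7, 8, 9, 32A and 36A gave 34.6, 33.9, 35.3, 32.6 and 33.03 CPM. The log2 difference between EE and SH was 0.10 in WT (SE 0.06, -0.03 to 0.24, edgeR adjusted p = 0.713) and -0.00 in KD (SE 0.07, -0.14 to 0.13). Without library 17 the WT value was 0.05, and without 33A it was 0.14. Without the lettered libraries, the only 2 WT EE libraries left were 16 and 17, and the WT value was then 0.25 (SE 0.08, edgeR adjusted p = 0.116).

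Crtc3, the least abundant CRTC per kilobase, averaged 30.3 ± 1.499 CPM in WT SH, 31.5 ± 1.58 in WT EE, 27.2 ± 4.29 in KD SH and 28.7 ± 2.22 in KD EE. WT SH ran from 27.7 through 30.5 to 31.97 CPM. KD SH ran from 21.5 CPM in library 5 and 22.9 CPM in library 1 through a median of 27.8 to 31.7 CPM. In WT EE, libraries 16, 17, 31B, 33A and 35A gave 30.5, 33.4, 29.7, 32.8 and 30.9 CPM, and in KD EE libraries 7, 8, 9, 32A and 36A gave 29.2, 28.9, 25.2, 31.3 and 28.9 CPM. KD libraries were lower than WT on average under both housings, with log2 differences of -0.15 in SH (SE 0.08, -0.31 to 0.01, edgeR adjusted p = 0.811) and -0.13 in EE (SE 0.09, -0.31 to 0.05), and the ranges overlapped in both. Without library 5 the SH difference was -0.09. EE against SH gave 0.06 (SE 0.08) in WT and 0.08 (SE 0.08) in KD.

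Crebbp was the gene of the 8 that varied most, with a 2.14-fold range over the 22 libraries, and most of that range lay inside WT EE. Its mean was 88.3 ± 6.24 CPM in WT SH, 93.1 ± 25.5 in WT EE, 84.8 ± 4.62 in KD SH and 86.5 ± 8.82 in KD EE. WT SH ran from 79.0 through 88.8 to 97.5 CPM and KD SH from 81.0 through 83.5 to 93.8 CPM. In WT EE, libraries 16, 17 and 33A gave 81.4, 60.4 and 91.4 CPM, while 31B and 35A, which the authors left out, gave 103 and 129 CPM. Library 35A also had the largest share of counts on no single gene of the 22 (18.6%, next 16.1%). In KD EE, libraries 7, 8, 9, 32A and 36A gave 82.0, 92.3, 73.1, 93.9 and 91.4 CPM. The lowest and the highest of all 22 values were thus both WT EE libraries, and the SD there was the largest of the 4 groups. Over the genes within 2-fold of its level (3879 genes), 93.6% had a smaller SD of log2 CPM over the 22 libraries than the 0.20 of Crebbp.

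The sign of the Crebbp difference between EE and SH in WT turned with the libraries used. It was 0.08 on the log2 scale over 22 libraries (SE 0.11, -0.16 to 0.31, edgeR adjusted p = 0.908), -0.21 over the 17 the authors kept (SE 0.09, adjusted p = 0.307) and -0.31 without the lettered libraries (SE 0.10, adjusted p = 0.138). Leaving out library 35A alone gave -0.075 and leaving out library 17 alone gave 0.20. For KD against WT in EE the value was -0.10 (SE 0.12, adjusted p = 1) over 22 libraries and 0.21 (SE 0.10, adjusted p = 0.772) over 17. The choroid plexus list moved with this split, at 229 and 262 CPM in the 2 high WT EE libraries and 5955 to 8045 CPM in the other three. In KD EE the order was another: library 9, with the fewest choroid plexus counts of that group (464 CPM), had the lowest Crebbp (73.1 CPM), and library 36A, with the most of all 22 (8351 CPM), had 91.4 CPM. Library 17, the lowest for Crebbp, was also the highest for the blood markers. With the score of that list as a covariate the value in WT was 0.15 (SE 0.11, adjusted p = 0.761).

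**Figure D2:**
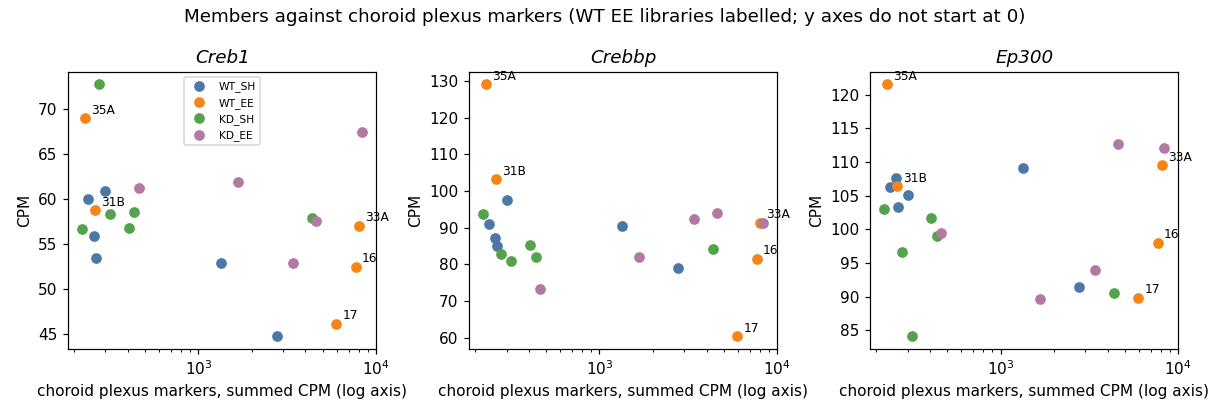
CPM of Creb1, Crebbp and Ep300 (linear y axes that do not start at 0) against the summed CPM of 12 choroid plexus markers (log x axis) in 22 libraries coloured by group, with the WT EE libraries labelled. WT EE libraries 31B and 35A lie at the low end of the markers and the high end of Crebbp, and library 17 is the lowest for Crebbp.

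Ep300 averaged 103.8 ± 6.36 CPM in WT SH, 105 ± 12.0 in WT EE, 95.9 ± 7.25 in KD SH and 101.6 ± 10.5 in KD EE. WT SH ran from 91.5 CPM in library 12 through 105.7 to 109 CPM, and KD SH from 84.1 through 97.8 to 103 CPM. In WT EE, libraries 16, 17, 31B, 33A and 35A gave 98.0, 89.8, 106, 109 and 122 CPM. In KD EE, libraries 7, 8, 9, 32A and 36A gave 89.6, 94.0, 99.4, 113 and 112 CPM. Within WT EE libraries 17 and 35A were again the lowest and the highest. KD against WT was -0.11 on the log2 scale in SH (SE 0.07, -0.26 to 0.03, edgeR adjusted p = 0.825) and -0.05 in EE (SE 0.08, -0.21 to 0.11), and EE against SH was 0.02 in WT (SE 0.07) and 0.09 in KD (SE 0.07).

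**Figure D3:**
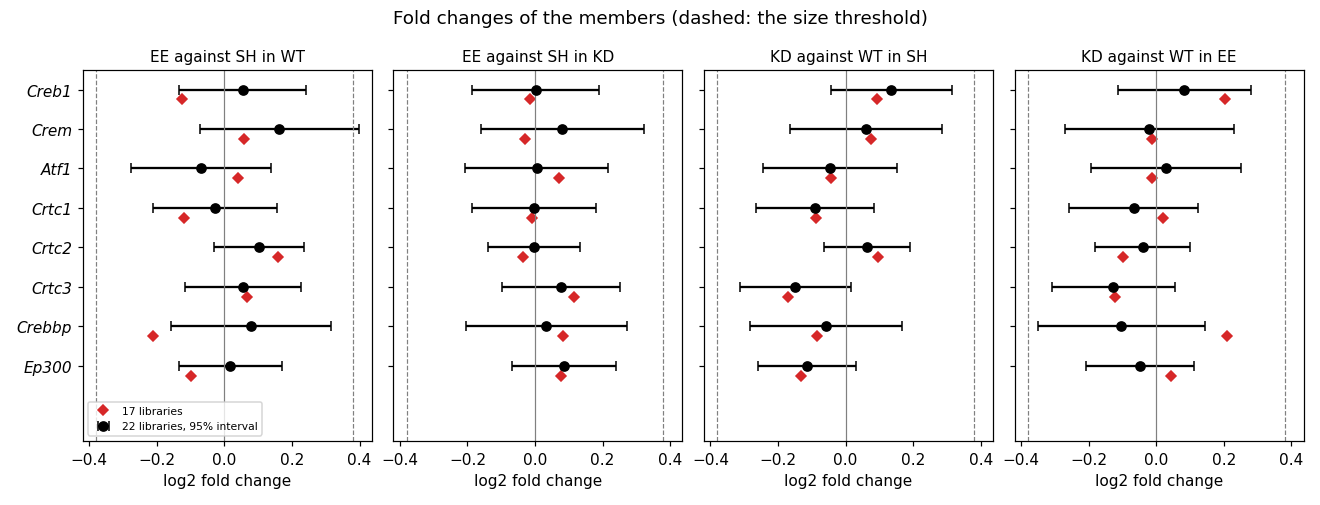
Log2 fold changes of the 8 genes in 4 comparisons: black points with 95% intervals from 22 libraries, red diamonds from the 17 libraries the authors kept, dashed lines at ±0.38. Every interval spans 0 and only that of Crem for EE against SH in WT reaches past a dashed line; Crebbp changes side between the 2 sets in the WT and the EE panels.

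Whether the response to enrichment differed between the genotypes was asked with the interaction term. It lay between -0.10 (SE 0.09, -0.29 to 0.09, Crtc2) and 0.07 (SE 0.14, -0.22 to 0.37, Atf1), and edgeR's adjusted p was 1 for each of the 8. Over the 17 libraries, 1 of the 8 in EE against SH in WT (Crebbp), 2 in KD against WT in EE (Creb1 and Crebbp) and 1 in the interaction (Crebbp, 0.29, SE 0.13) had an unadjusted p under 0.05, where 13.7%, 6.40% and 5.51% of all genes did. How many of all genes were called in WT over these libraries is given in the closing section. None of the values above was called, with adjusted p-values in edgeR of 0.307, 0.777, 0.772 and 0.875. The Creb1 values behind these were 0.20 (SE 0.10) for KD against WT in EE and -0.13 (SE 0.09) for EE against SH in WT, the latter with the opposite sign to that over 22 libraries.

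Of the 28 pairs of the 8 genes, 2 had a Pearson r that passed adjustment over the pairs, both of them paralogs. Crebbp and Ep300 had a Pearson r of 0.709 over the 22 libraries (permutation test with 100000 resamples, two-sided, adjusted over 28 pairs p = 0.00336), a Spearman rho of 0.745 (adjusted p = 0.00308) and an r of 0.592 without libraries 17 and 35A. Crtc1 and Crtc3 had an r of 0.721 (permutation adjusted p = 0.0035) and a rho of 0.552 (adjusted p = 0.118), with an r of 0.546 without libraries 5 and 6. Next came Creb1 and Crem with an r of 0.571 (permutation adjusted p = 0.0551) and a rho of 0.464 (adjusted p = 0.166). The other paralog pairs had an r of -0.49 (Crem and Atf1, permutation adjusted p = 0.122), -0.167 (Creb1 and Atf1, 0.587), 0.0671 (Crtc1 and Crtc2, 0.795) and 0.0688 (Crtc2 and Crtc3, 0.795). Without libraries 9 and 35A the r of Crem and Atf1 was -0.0261.

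The base composition of what was counted moved with several of these genes. The GC gap of a library is the median log2 deviation of genes in the top quartile of transcript GC content minus that in the bottom quartile, and it was lowest in KD SH libraries 5 (-0.44) and 1 (-0.21) and in WT SH library 14 (-0.27) and highest in WT EE library 17 (0.23). The groups overlapped, from -0.27 to 0.15 in WT SH, -0.05 to 0.23 in WT EE, -0.44 to 0.18 in KD SH and -0.06 to 0.14 in KD EE. Creb1, whose longest transcript is 39.6% GC, fell with the gap (r = -0.698, permutation adjusted p over 8 genes = 0.00312; rho = -0.756, adjusted p = 0.0004; r = -0.606 without libraries 5 and 14). Crtc1 at 56.5% GC rose with it (r = 0.669, permutation adjusted p = 0.0032; rho = 0.479, adjusted p = 0.0741; r = 0.473 without those libraries). Crtc3 at 57.0% GC did so too (r = 0.630, permutation adjusted p = 0.00789; rho = 0.368, adjusted p = 0.147; r = 0.502 without them). For Crem, Atf1, Crtc2, Crebbp and Ep300, r was -0.413, -0.0556, 0.429, -0.151 and 0.0644, with permutation adjusted p-values of 0.0889, 0.805, 0.0889, 0.645 and 0.805. Creb1 and Crem lie in the bottom quartile (up to 44.7% GC) and Crtc1, Crtc2 and Crtc3 in the top (from 54.3%). The gap is built from genes of those quartiles, so its definition favours the signs seen for these genes. How many other genes of the quartiles had such an r was not computed. After subtraction of the group means r was -0.734 for Creb1, 0.680 for Crtc1 and 0.584 for Crtc3. With the gap as a covariate, a choice made after the data were seen, 0 of the 8 genes were called in any comparison and Crem averaged over the genotypes was 0.18 (SE 0.07, edgeR adjusted p = 0.228).

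**Figure D4:**
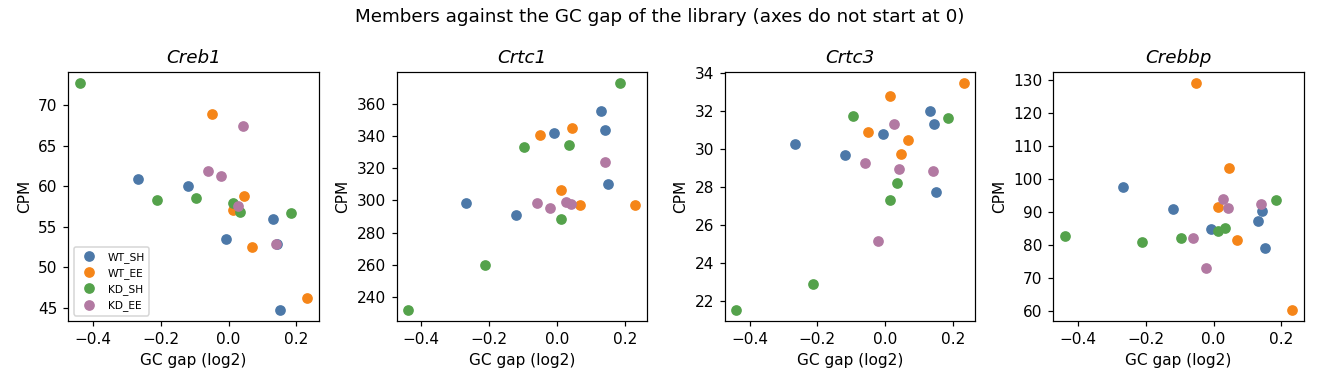
CPM of Creb1, Crtc1, Crtc3 and Crebbp (y axes that do not start at 0) against the GC gap of each of 22 libraries in log2 units, coloured by group. Creb1 is lower and Crtc1 and Crtc3 are higher where the gap is larger, with KD SH library 5 at -0.44 the farthest point, and the groups overlap along the gap. Creb1 lies in the bottom and Crtc1 and Crtc3 in the top GC quartile, from which the gap is computed.

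The genes whose log2 CPM followed each of the 8 most closely, over all 18482 genes tested and 22 libraries that share housing, depth and base composition, are given as a description. They were Zfp420 (r = 0.902) and Zfp426 (0.890) for Creb1, Suz12 (0.830) and Slc38a9 (0.813) for Crem, and Rest (0.797) and BC055324 (0.762) for Atf1. For the CRTCs they were Dagla (0.951) and Sgsm2 (0.942) for Crtc1, Pan2 (0.857) and Man2c1 (0.850) for Crtc2, and Nisch (0.880) and Nrg2 (0.875) for Crtc3. Crebbp was followed by Ssh1 (0.882) and Ptprj (0.869), and Ep300 by Bptf (0.934) and Epha6 (0.919). Zfp420 and Zfp426, at 42.4% and 43.6% GC, were low in GC as Creb1 is, and Dagla and Sgsm2, at 58.8% and 57.6%, were high as Crtc1 is.

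The kinase upstream, MSK1 (Rps6ka5), was counted in all groups, since a point mutation leaves the transcript in place, so its count does not check the genotype. It averaged 24.9 ± 2.21 CPM in WT SH (n = 6), 21.4 ± 1.92 in WT EE (n = 5), 25.4 ± 2.18 in KD SH (n = 6) and 23.6 ± 3.48 in KD EE (n = 5). WT SH ran from 22.3 to 28.2 CPM and WT EE from 19.3 to 24.3 CPM, and the groups overlapped. Averaged over the genotypes it was lower in EE by a log2 difference of -0.17 (SE 0.06, -0.29 to -0.04), which did not pass over 22 libraries (edgeR adjusted p = 0.164). The 17 libraries gave -0.25 (SE 0.06, adjusted p = 0.00534), under the size needed for a call. With the choroid plexus score as a covariate it was -0.08 (adjusted p = 0.555). KD against WT gave 0.03 (SE 0.08) in SH and 0.14 (SE 0.09) in EE.

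Around the 8 genes, 103 genes of 6 pathway lists were tested, and none of them was called over the 22 libraries in any of the 6 comparisons. For EE against SH in WT 5 of the 103 were higher and 7 lower at an unadjusted p under 0.05, or 11.7% against the 8.65% of all genes. In KD 11 were higher and 6 lower, or 16.5% against 9.63%. KD against WT gave 1 higher and 8 lower in SH (8.74% against 5.76%) and 1 higher and 0 lower in EE (0.971% against 2.61%), and the interaction 1 higher and 0 lower (0.971% against 2.04%). Averaged over the genotypes 10 were higher and 10 lower in EE (19.4% against 16.1%), and 1, Vgf, passed an edgeR adjusted p of 0.05, as did 0.265% of all genes.

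Of the 25 CREB target genes, 9 were higher in EE and 0 lower in KD at an unadjusted p under 0.05 over 22 libraries, where 9.63% of all genes reached that p, with a list median of 0.27 on the log2 scale beside 0.0028 for all genes. The 4 with the lowest p were Vgf (0.36, SE 0.07), Sik1 (0.74, SE 0.25) and the activity-induced factors Fosb (0.65, SE 0.23) and Junb (0.40, SE 0.14), with edgeR adjusted p-values of 0.150, 0.457, 0.467 and 0.467. Over the 17 libraries 12 of the 25 were higher and 0 lower in KD (11.3% of all genes). Without the lettered libraries 1 was higher and 0 lower (6.08% of all genes), and Sik1 was then at 0.27, Fosb at 0.32 and Junb at 0.16. In WT 2 were higher (Vgf and Bdnf) and 1 lower (Npas4), against 8.65% of all genes, with a median of -0.0066 beside 0.0062, and without the lettered libraries 1 was higher and 8 lower (14.2% of all genes). KD against WT in SH gave 1 higher (Vip) and 6 lower, among them Junb (-0.41, SE 0.14), Vgf (-0.17, SE 0.07) and the interneuron peptide Sst (-0.21, SE 0.09). The median was -0.17 beside 0.0064, and 5.76% of all genes reached that p. Without the lettered libraries 1 was higher and 10 lower (6.09% of all genes). The interaction had a median of 0.21, with 1 of the 25, Junb (0.44, SE 0.20, edgeR adjusted p = 1), under an unadjusted 0.05, and 8 of the 25 were so over the 17 libraries (5.51% of all genes), all higher and none called. The KD SH libraries enter both KD comparisons and the interaction, so these medians share them.

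Vgf, a secreted neuropeptide precursor induced by activity and neurotrophins, was the one pathway gene past an edgeR adjusted p of 0.05 over the 22 libraries. It read 178 to 239 CPM in WT SH, 229 to 268 CPM in WT EE, 174 to 208 CPM in KD SH and 215 to 266 CPM in KD EE. The KD ranges did not overlap, as for 0.546% of all genes tested, and the WT ranges overlapped at their ends. The averaged log2 difference was 0.30 (SE 0.05, edgeR adjusted p = 0.0173), under the 0.38 needed for a call. In KD alone it was 0.36 over 22 libraries (edgeR adjusted p = 0.150, DESeq2 adjusted p = 0.00698) and 0.383 over the 17 (edgeR adjusted p = 0.00627). Over the 17 it was called, as were 325 of the 18701 genes tested. Without the lettered libraries the KD value was 0.32 (edgeR adjusted p = 0.721). In WT alone the difference was 0.23 over 22 libraries (edgeR adjusted p = 0.399). The average was 0.30 over the 17 libraries (adjusted p = 0.00126), 0.27 without the lettered libraries (adjusted p = 0.0622) and 0.28 with the choroid plexus score as a covariate (adjusted p = 0.05505). KD against WT in SH was at -0.17 (SE 0.07, edgeR adjusted p = 0.8115), with means of 186 CPM in KD SH and 209 CPM in WT SH. In EE the means were 239 CPM in KD and 246 CPM in WT.

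Sik1, a salt-inducible kinase that holds CRTCs in the cytoplasm and is itself a CREB target, had a mean of 11.4 ± 2.75 CPM in WT SH, 15.4 ± 5.79 in WT EE, 8.64 ± 2.01 in KD SH and 14.2 ± 6.17 in KD EE. The averaged log2 difference was 0.59 (SE 0.18, edgeR adjusted p = 0.0972). In EE the lettered libraries were the high ones, at 16.4 to 23.4 CPM against 8.35 to 14.1 CPM in the numbered ones, and without them the difference was 0.01 (SE 0.16, adjusted p = 0.987). Of the other CREB target genes, Fosb was at 0.49 (SE 0.16) with 22 libraries and -0.09 without the lettered ones and Per1 at 0.26 (SE 0.09) and 0.02, while Vgf was at 0.30 and 0.27. All 5 lettered libraries are EE, so the lettering and the housing cannot be fully told apart.

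The listed subunits of calcineurin, the phosphatase that releases CRTCs, are Ppp3ca, Ppp3cb and Ppp3r1. They were lower in EE at an unadjusted p under 0.05 in the average over genotypes and in KD, and Ppp3ca and Ppp3cb also in WT, and none had an edgeR adjusted p of 0.05 or less over the 22 libraries. Averaged over the genotypes the catalytic subunits Ppp3cb and Ppp3ca were both at -0.15 (edgeR adjusted p = 0.0907 and 0.0971) and the regulatory subunit Ppp3r1 at -0.13 (adjusted p = 0.183). Ppp3cb averaged 351 ± 20.3 CPM in WT SH and 318 ± 8.13 in WT EE, and 369 ± 38.5 in KD SH and 330 ± 20.05 in KD EE. With Sik1 they were the 4 of 13 genes of the CRTC kinase and phosphatase list at an unadjusted p under 0.05, 1 higher and 3 lower, where 16.1% of all genes reached that p. The list median was 0.01. Over the 17 libraries Ppp3ca was at -0.21 (adjusted p = 0.00396) and Ppp3cb at -0.18 (adjusted p = 0.0464), under the size needed for a call, and with the choroid plexus score as a covariate they were at -0.08 (adjusted p = 0.389) and -0.10 (adjusted p = 0.296). DESeq2's Wald test over 22 libraries gave them adjusted p-values of 0.0377 and 0.0396. Ppp3r1 had an adjusted p of 0.101 over the 17.

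A list of 19 genes covered the supply and removal of cAMP and the control of protein kinase A. In the average over genotypes 3 of the 19 were lower in EE and none higher at an unadjusted p under 0.05 (16.1% of all genes). They were the phosphodiesterases Pde1b (-0.16, SE 0.04, edgeR adjusted p = 0.0673) and Pde4b (-0.09) and the inhibitor of protein kinase A Pkia (-0.13). Over 31 alternatives Pde1b ran from -0.17 to -0.12, with an adjusted p (edgeR or DESeq2) from 0.0205 to 0.310. The adenylyl cyclase Adcy5 was lower in KD SH than in WT SH at 161 ± 16.7 against 189 ± 5.88 CPM, a log2 difference of -0.23 (SE 0.06, edgeR adjusted p = 0.811). Of the 14 kinases that phosphorylate the CREB site, 2 were lower in the average at that p and 0 higher, Rps6ka5 and Rps6ka1 (-0.15, adjusted p = 0.203). Of the 14 CREB-related factors tested, 3 were higher and none lower at that p, Creb3l2 (0.24, adjusted p = 0.0907), Creb3l1 (0.41, adjusted p = 0.116) and the stress-induced Atf3 (0.50, adjusted p = 0.211). Without the lettered libraries Atf3 was at 0.21 (edgeR adjusted p = 0.785) and Creb3l2 at 0.19 (adjusted p = 0.319), while DESeq2's Wald test over 22 libraries gave Creb3l2 an adjusted p of 0.0399.

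Creb3l1, a membrane-bound relative of CREB known from secretory cells, was higher in the WT EE libraries with more choroid plexus counts. In WT EE it read 8.87, 6.69 and 8.49 CPM in libraries 16, 17 and 33A and 4.99 and 3.75 CPM in 31B and 35A, against 3.86 to 5.48 CPM in WT SH. Within WT SH the order was mixed. Library 12, with the most choroid plexus counts there (2779 CPM), had 4.13 CPM. Libraries 11 (1341 CPM) and 14 (300.2 CPM) had 5.48 and 5.17 CPM. In KD SH, library 2 had the most choroid plexus counts (4351 CPM) and the highest Creb3l1 (6.12 CPM). In KD EE, library 9 had the fewest (464 CPM) and the lowest Creb3l1 (3.785 CPM). Its log2 difference in WT was 0.53 over 22 libraries (edgeR adjusted p = 0.414), 0.80 over the 17 (adjusted p = 4.56e-04), 0.79 without the lettered libraries (adjusted p = 0.0369) and 0.22 with the choroid plexus score as a covariate (adjusted p = 0.729). Averaged over the genotypes it was 0.41 over 22 libraries, 0.65 over the 17 (adjusted p = 4.69e-05) and 0.08 with the covariate (adjusted p = 0.762). It was thus called in both comparisons over the 17 libraries and in neither over the 22. Of 18701 genes tested over the 17, 664 were called in WT and 720 in the average. Without the lettered libraries Creb3l1 was also called in WT, where 14.2% of all genes had an unadjusted p under 0.05. Of the 19 acetyltransferases and partners of CBP and p300, 2 were lower and none higher in EE on average at an unadjusted p under 0.05, where 16.1% of all genes reached that p. They were the deacetylases Hdac1 (-0.11, edgeR adjusted p = 0.195) and Hdac2 (-0.10, adjusted p = 0.266). Cited2, which competes for a domain of CBP and p300, was lower in KD SH than in WT SH at 24.3 ± 1.92 against 28.3 ± 0.540 CPM (log2 difference -0.22, SE 0.07, edgeR adjusted p = 0.811) and had the lowest p of its list in that comparison. Its ranges did not overlap, as for 0.276% of all genes tested.

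**Figure D5:**
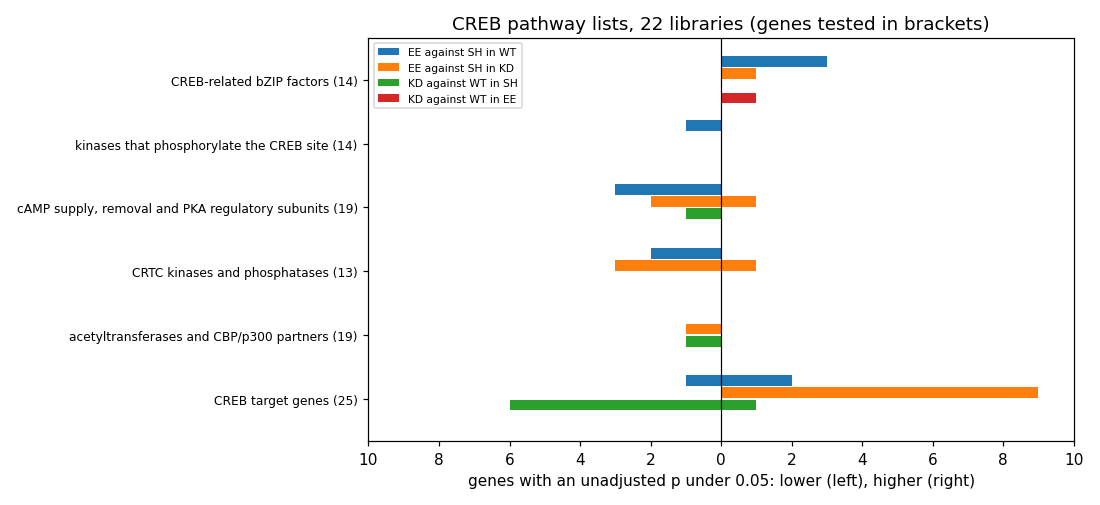
Number of genes of each of 6 pathway lists with an unadjusted p under 0.05 in 4 comparisons over 22 libraries, lower to the left and higher to the right of 0; the number of genes tested is in brackets. The CREB target genes, the largest list with 25, have 9 higher for EE against SH in KD and 6 lower for KD against WT in SH, and none of the genes was called after adjustment.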

How the data were processed

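Hippocampal poly-A RNA was sequenced as unstranded paired-end libraries. The authors aligned the reads with STAR 2.5 to GRCm38 and counted uniquely mapped reads per gene with HTSeq, without strand. The deposited values used here are these raw counts per library; a deposited table of the authors' own comparisons was not used. Between 14.0% and 18.6% of the counts of the 22 libraries fell on no single gene and were left out. Library 34B was left out with 33B as failed. Counts were fitted with edgeR 4.0.16 in R 4.3.3 (filterByExpr, TMM, 4 group means, quasi-likelihood test, Benjamini-Hochberg over 18482 genes), with the authors' thresholds, which they used with DESeq2. DESeq2 1.42.0 was an alternative. Level plots and log2 CPM (prior count 2) used the same scaling. Exon lengths and GC came from GENCODE M21. Other settings are in the closing section.

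The 8 genes, the lists and the comparisons were chosen with earlier results of these data known. Named genes were the 8, Rps6ka5, up to 4 genes per pathway list with the lowest unadjusted p under 0.05 in a comparison, and the 2 most correlated genes for each of the 8. Intervals are 95% and cover the spread between libraries. Library codes differ between groups, so no samples were paired.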

Additional observations from a re-analysis of the deposited data

Results flagged for a closer look

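In 5 of 32 groups of values (8 genes in 4 groups) 1 library stood apart from the rest of its group by Dixon's test, where chance marks about 1 group in 20. Creb1 in KD SH library 5 was 72.7 CPM, with the next library at 58.6 and the lowest at 56.7 CPM. That library also had the lowest GC gap and the lowest Crtc1 and Crtc3 values of all 22. Crtc1 in KD EE library 8 was 323.6 CPM, with the other 4 libraries between 295.3 and 299 CPM. KD SH library 6 was the highest of its group for Crtc2, at 38.7 CPM with the next at 33.9, and for Crebbp, at 93.8 CPM with the next at 85.2. Ep300 in WT SH library 12 was 91.5 CPM, with the next lowest at 103.3 CPM, and this is the library with the high thalamic markers.

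Library 33B, a WT EE library that the labels mark as failed, held 18667300 counts on genes with 54.1% of its counts on no single gene, and it entered none of the comparisons over 22 libraries and only the alternative over all 24, where the Crebbp difference between EE and SH in WT was 0.18 on the log2 scale (edgeR adjusted p = 0.669). Crebbp read 137.2 CPM there and Ep300 122.2 CPM, both above the highest of the 22 libraries (129.1 and 121.5 CPM, in WT EE library 35A).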

How the results depend on the processing

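None of the 8 genes was called under any alternative, and the lowest adjusted p over all of them was 0.116 (Crtc2 for EE against SH in WT without the lettered libraries). With DESeq2's size factors in edgeR and with its Wald test all 48 values kept their sign and their side of an unadjusted 0.05. The GC gap, the omission of libraries 12 and 14 and the list counts without libraries were chosen after the data were seen. The cause of each turned sign was not tested. Over the 17 libraries the authors kept the sign turned for Creb1 (-0.13), Atf1 (0.041), Crebbp (-0.21) and Ep300 (-0.10) in EE against SH in WT, for Creb1 (-0.015) and Crem (-0.029) in EE against SH in KD, for Atf1 (-0.013), Crtc1 (0.021), Crebbp (0.21) and Ep300 (0.045) in KD against WT in EE, for Creb1 (-0.070), Atf1 (0.056), Crebbp (-0.065) and Ep300 (-0.012) in the average over genotypes and for Creb1 (0.11) and Crebbp (0.29) in the interaction. Over all 24 libraries the sign turned for Creb1 (-0.0032) in EE against SH in KD. Without the lettered libraries the sign turned for Creb1 (-0.14), Crem (-0.0020), Crebbp (-0.31) and Ep300 (-0.14) in EE against SH in WT, for Creb1 (-0.034), Atf1 (-0.044), Crtc1 (0.016), Crtc2 (0.032), Crebbp (-0.030) and Ep300 (-0.020) in EE against SH in KD, for Crem (0.11), Atf1 (-0.055), Crtc1 (0.039), Crebbp (0.22) and Ep300 (0.0025) in KD against WT in EE, for Creb1 (-0.088), Crebbp (-0.17), Ep300 (-0.079) and Fosb (-0.093) in the average over genotypes and for Creb1 (0.11), Crem (0.058), Atf1 (-0.0078), Crtc3 (-0.051) and Crebbp (0.28) in the interaction. Without the filter on low counts the sign turned for Creb1 (-0.010) and Atf1 (-0.0055) in EE against SH in KD. With the choroid plexus score as a covariate the sign turned for Crtc1 (0.0022) in EE against SH in WT, for Atf1 (-0.076) and Crtc1 (0.042) in EE against SH in KD, for Crem (0.0023) in KD against WT in EE, for Crtc1 (0.022) in the average over genotypes and for Crebbp (0.013) in the interaction. With the GC gap as a covariate the sign turned for Crem (-0.010) in KD against WT in SH and for Crtc1 (-0.0068) in the interaction. Without libraries 12 and 14 the sign turned for Ep300 (-0.020) in EE against SH in WT. Leaving out 1 library at a time gave values on both sides of 0 for Creb1 (-0.033 to 0.12), Crtc1 (-0.062 to 0.0014), Crebbp (-0.075 to 0.20) and Ep300 (-0.045 to 0.066) in EE against SH in WT, for Creb1 (-0.040 to 0.061), Crem (-0.0085 to 0.14), Atf1 (-0.043 to 0.071), Crtc1 (-0.069 to 0.064), Crtc2 (-0.019 to 0.039) and Crebbp (-0.0024 to 0.085) in EE against SH in KD, for Crem (-0.11 to 0.079), Atf1 (-0.032 to 0.097), Crtc2 (-0.084 to 0.0078), Crebbp (-0.22 to 0.048) and Ep300 (-0.099 to 0.013) in KD against WT in EE, for Creb1 (-0.017 to 0.057), Crtc1 (-0.048 to 0.018) and Crebbp (-0.022 to 0.11) in the average over genotypes and for Creb1 (-0.12 to 0.032), Crem (-0.17 to 0.020), Crtc1 (-0.042 to 0.091), Crtc3 (-0.033 to 0.070) and Crebbp (-0.17 to 0.11) in the interaction. The number of the 8 genes at an unadjusted p under 0.05 was 0 over 22 libraries in each comparison. Over the 17 libraries it was 1 in WT (13.7% of all genes at that p), 2 for KD against WT in EE (6.40%) and 1 in the interaction (5.51%). Without the lettered libraries it was 2 in WT (14.2%), 2 in the average (13.8%) and 1 in the interaction (7.91%), and in the average it was 1 with the choroid plexus score (16.5%) and 1 with the GC gap (16.4%). Leaving out 1 library gave 0 or 1 in WT (1 without 17 or 33A, with 7.63% and 7.85% of all genes at that p), 0 to 2 for KD against WT in SH (1 without 4 or 6, with 6.15% and 10%, and 2 without 12, with 6.16%) and 0 or 1 for KD against WT in EE (1 without 17, with 2.61%). The number of genes called over 22 libraries, 0 in WT, 0 in KD and 27 in the average, was 664, 325 and 720 over the 17, of 18701 tested. The fewest counts of any of the 8 genes in a library were 78, for Atf1 in library 9, so counting error enters the spread of the least counted genes.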
